A study of Homo sapiens with 6 samples.

Results

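The E2F family comprises the transcription factors E2F1 to E2F8 and the DP partners TFDP1 and TFDP2, with which most of them bind DNA. These 10 genes were taken by symbol from a deposited table of 35430 genes, each symbol matched a single row, and all 10 passed the filter on low counts. RNA was sequenced from LNCaP, an established line of human prostate cancer cells that respond to androgen, in 3 libraries of cells given 0.5 µM palbociclib for 1 week and in 3 libraries of control cells. Palbociclib blocks the cyclin-dependent kinases CDK4 and CDK6. Per the series' design text the drug was dissolved in water, and cell cycle assays were used to check the treated cells. The labels name the controls only as control, with no vehicle and no culture time, so drug and time in culture cannot be told apart. Both groups are the same established line with no engineered allele stated. Nothing says that replicates were separate cultures, so the p-values may rest on technical spread alone.

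E2F factors switch on the genes that cells need to copy their DNA. In resting cells the retinoblastoma protein RB1 and its relatives RBL1 and RBL2 hold E2Fs in an inactive or repressing state, and CDK4 and CDK6 with D cyclins start to lift that hold. E2F1, E2F2 and E2F3 mainly activate, E2F4 and E2F5 mainly repress together with the pocket proteins, and E2F6, E2F7 and E2F8 repress without them. E2F7 and E2F8 carry a pair of DNA-binding domains, need no DP partner, and are themselves made in S phase as a brake on E2F1.

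Libraries held 59183323 to 76211410 estimated counts with palbociclib and 57082715 to 78117945 in controls. Multiples of 4 were in excess among small counts, from which it was inferred that about 4 counts stand for a single fragment. Counts of the 10 genes ran from 494 for E2F8 to 6432 for TFDP2 in a library. All 10 LNCaP markers tested were present, at a summed 9348 to 9540 CPM with palbociclib and 6116 to 6192 CPM in controls (CPM, estimated counts relative to a library size scaled with edgeR's TMM factors). Markers of other cell types summed to far less, though the stromal marker COL1A1 stood above 66.35% of the genes tested in mean CPM. Leukocyte markers summed to 5.98 to 8.48 CPM with palbociclib and 4.07 to 5.57 CPM in controls. Of 5 tested 2 were higher and 1 was lower, beside 20.1% higher and 18.5% lower over all 21218 genes tested. CD68 was higher and made up most of the sum with palbociclib, at 4.38 to 7.40 CPM, against 2.00 to 2.85 CPM in controls. It shares 1765 of 2163 exon bases with an unnamed gene on the same strand. ITGAM was higher at 17, 12 and 14 counts in palbociclib libraries 1, 2 and 3, against 0, 0 and 4 in controls. It thus passed the filter on low counts only through the palbociclib group. PTPRC, the defining marker, was lower, at 0.396 to 0.598 CPM with palbociclib and 0.851 to 1.81 CPM in controls. Basal epithelial markers summed to 2.62 to 4.59 and 1.10 to 2.58 CPM, stromal markers to 34.1 to 38.6 and 30.7 to 32.7 CPM, and endothelial markers to 5.54 to 6.35 and 9.71 to 13.3 CPM, palbociclib first. Most of the stromal sum was COL1A1, at 27.2 to 30.4 and 25.5 to 26.4 CPM, which was not called, and ACTA2 was called higher, at 3.08 to 4.93 and 1.85 to 3.11 CPM. DCN was at 0 in palbociclib libraries 1 and 2 and in control libraries 2 and 3. Of the basal markers KRT14 was called higher (log2 fold change 1.18), and of the endothelial markers VWF was called lower (-0.99). The part of these differences in the results was not tested.

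After 1 week of palbociclib E2F7 fell 2.70-fold, E2F8 1.84-fold, E2F2 1.68-fold and E2F1 1.24-fold, while E2F3 rose 1.29-fold and E2F5 1.26-fold. The E2F5 call held in 6 of 15 alternative settings, and those of the other 5 genes held in all 15. E2F4, E2F6, TFDP1 and TFDP2 did not pass the test. Of the 10 genes 6 were called by edgeR at an adjusted p under 0.05, where 38.6% of the 21218 genes tested were. The 4 lower genes stand beside a background of 18.5% lower, and the 2 higher genes beside 20.1% higher, so the share of members that rose was near that of all genes. Palbociclib and control libraries did not overlap for 7 of the 10, against 51.1% of all genes tested, and the change passed 2-fold for E2F7 alone, with 5.27% of all genes called and over 2-fold lower. In bulk RNA, fewer cells in a phase of the cycle and less RNA per cell cannot be told apart.

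**Figure D1:**
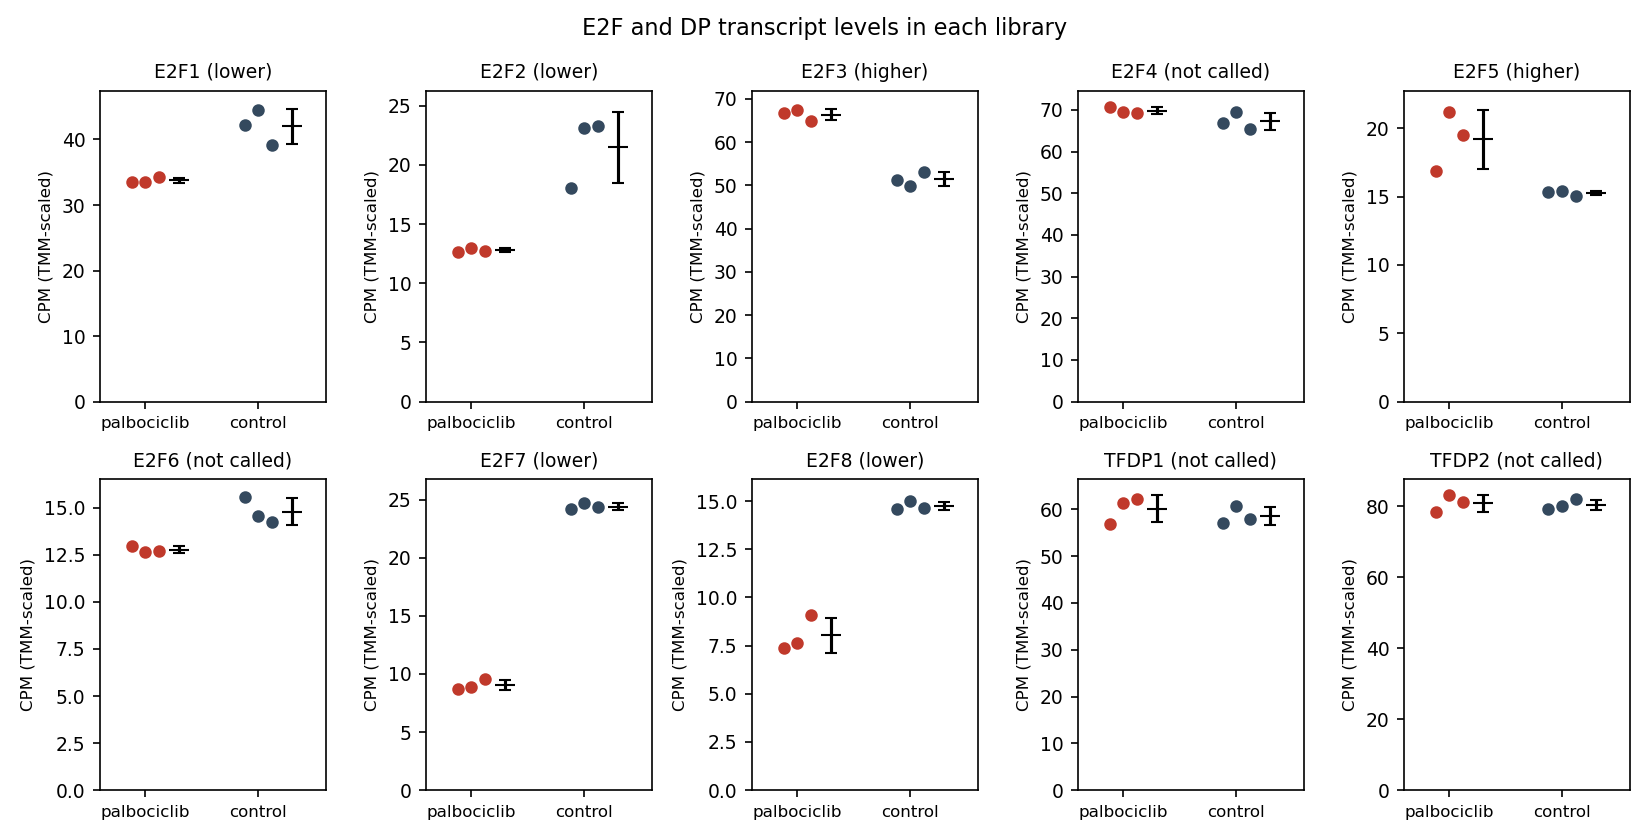
Transcript level of each E2F and DP gene in CPM on TMM-scaled library sizes (vertical axes from 0), with a point per library, palbociclib in red and control in dark blue, and the mean ± SD of 3 libraries in black. E2F7 sits at 8.70 to 9.54 CPM with palbociclib and at 24.2 to 24.7 CPM in controls, while the groups overlap for E2F4, TFDP1 and TFDP2.

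Per length of transcript, E2F4 was the most abundant of the 10 genes in both groups, with 18.0 ± 0.185 FPKM with palbociclib and 18.7 ± 0.678 FPKM in controls (fragments relative to exon length and to mapped reads, SD, n = 3 each). In palbociclib libraries the order of FPKM levels went on with TFDP1 (14.9), E2F3 (11.8), E2F1 (11.6), TFDP2 (6.29), E2F5 (2.96), E2F6 (2.90), E2F2 (2.17), E2F8 (1.80) and E2F7 (1.32). The ranges of E2F3 and E2F1 overlapped there, as did those of E2F5 and E2F6, and other neighbours did not. In controls the FPKM order below E2F4 was TFDP1 (15.6), E2F1 (15.6), E2F3 (9.89), TFDP2 (6.75), E2F2 (3.93), E2F7 (3.87), E2F6 (3.62), E2F8 (3.56) and E2F5 (2.54). Neighbours that overlapped were TFDP1 with E2F1, E2F2 with E2F7, and E2F6 with E2F8. By mean FPKM E2F5 thus stood last in controls and ahead of 4 other genes with palbociclib, and E2F7 was last with palbociclib. In palbociclib library 1 E2F5 was below E2F6. The change of rank also reflects the lower FPKM of E2F2, E2F6, E2F7 and E2F8 with palbociclib.

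Among the activators, E2F1 (ENSG00000101412, chromosome 20, 33675477 to 33686385 on hg38, minus strand), whose free form drives entry into S phase, was at 33.6, 33.5 and 34.3 CPM in palbociclib libraries 1, 2 and 3, against 42.3, 44.5 and 39.2 CPM in control libraries 1, 2 and 3. Every palbociclib library was below every control library, and the fall was modest. The log2 fold change was -0.31 ± 0.0601 (SE, edgeR adjusted p = 0.00315), and 29.45% of the genes tested had a lower one. E2F2 (ENSG00000007968, chromosome 1, 23506438 to 23531233, minus strand), a close relative of E2F1, was at 12.7, 13.0 and 12.7 CPM in palbociclib libraries 1, 2 and 3, against 18.1, 23.1 and 23.3 CPM in control libraries 1, 2 and 3. The groups did not overlap, and control library 1 was the lowest of the controls. Its log2 fold change was -0.75 ± 0.111 (SE, edgeR adjusted p = 0.000813).

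E2F3 (ENSG00000112242, chromosome 6, 20401879 to 20493714, plus strand) moved the other way. This activator is made as a long and a short isoform from separate start sites, which the deposited value per gene does not separate. It was at 66.8, 67.3 and 64.9 CPM in palbociclib libraries 1, 2 and 3, against 51.3, 49.8 and 53.0 CPM in control libraries 1, 2 and 3. All palbociclib libraries were above all controls, and the spread within each group was small. The log2 fold change was 0.37 ± 0.0448 (SE, edgeR adjusted p = 0.000247). The FPKM ratio of E2F3 to E2F1 was 1.03, 1.04 and 0.982 in palbociclib libraries 1, 2 and 3, against 0.629, 0.580 and 0.701 in control libraries 1, 2 and 3. The transcripts of these activators were thus near parity with palbociclib, whereas E2F1 exceeded E2F3 in every control.

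E2F genes are known to be targets of E2F factors themselves, so the 150 bases before the RefSeq start site of the E2F1, E2F2, E2F3 and E2F7 genes are shown, 5′ to 3′ on the strand of the gene (RefSeq, GRCh38.p14, the same primary build as hg38). The E2F1, E2F2 and E2F3 stretches hold an exact match to the E2F site letters searched for, close to the start. That of E2F7, the member that changed most, holds no exact match. Runs that differ by a letter were not searched for. Capitals mark a match to TTTCCCGC, TTTCGCGC, TTTGCCGC or TTTGGCGC on either strand.
E2F1, chr20:33686386-33686535, minus strand: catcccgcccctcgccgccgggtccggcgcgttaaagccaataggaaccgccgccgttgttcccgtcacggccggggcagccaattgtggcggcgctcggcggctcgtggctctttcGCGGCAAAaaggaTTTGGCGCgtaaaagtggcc
E2F2, chr1:23531234-23531383, minus strand: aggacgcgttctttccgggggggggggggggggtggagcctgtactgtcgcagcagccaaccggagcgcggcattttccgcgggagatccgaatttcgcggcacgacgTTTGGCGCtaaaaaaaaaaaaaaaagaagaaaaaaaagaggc
E2F3, chr6:20401729-20401878, plus strand: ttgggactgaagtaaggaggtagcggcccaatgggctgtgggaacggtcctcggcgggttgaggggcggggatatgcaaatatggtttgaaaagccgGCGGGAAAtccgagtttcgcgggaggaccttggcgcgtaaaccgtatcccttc
E2F7, chr12:77065570-77065719, minus strand: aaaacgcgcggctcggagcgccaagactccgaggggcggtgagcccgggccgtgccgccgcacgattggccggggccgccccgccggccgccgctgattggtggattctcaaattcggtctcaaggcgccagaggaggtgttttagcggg

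The E2F1 stretch holds a pair of matches, 33 and 20 bases before the start at their far ends. E2F2 has a match that begins 42 bases before its start, and E2F3 has a match that begins 53 bases before the first of the RefSeq starts listed for it. Over windows of 250 bases before to 50 after the start, 8 of the 10 members had an entry and 4 of these 8 held at least 1 match, the fourth being TFDP1, 120 bases before its start. No match was found in the windows of E2F4, E2F6, E2F7 and TFDP2, nor in the window of the second E2F3 start. E2F5 and E2F8 had no entry. Of all 35116 windows, counted by window, 3.31% held a match and 0.15% held 2 or more, as the E2F1 window did. The members were counted by gene over any of their windows, so the shares are on unlike units. By gene, 798 tested genes had a match and 12091 had none. The members with a match went both ways, with E2F1 and E2F2 lower, E2F3 higher and TFDP1 not called. Across tested genes with a window, 26.9% of the 798 with a match were lower and 22.8% higher, beside 21.1% lower and 25.2% higher among the 12091 without, and the median log2 fold changes were -0.03 and -0.01. A match is a run of letters and not evidence of binding, and the lack of an exact match does not show that a promoter has no E2F site.

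Of the repressors that work with pocket proteins, E2F4 (ENSG00000205250, chromosome 16, 67192155 to 67198918, plus strand), the main E2F of resting cells, was at 70.8, 69.5 and 69.2 CPM in palbociclib libraries 1, 2 and 3, against 66.8, 69.5 and 65.3 CPM in control libraries 1, 2 and 3. The groups overlapped, and the value of 0.05 ± 0.0425 on the log2 scale (SE, edgeR adjusted p = 0.357) was -0.06 with library size alone. E2F5 (ENSG00000133740, chromosome 8, 85177154 to 85214518, plus strand), its closest relative, was at 16.9, 21.2 and 19.5 CPM in palbociclib libraries 1, 2 and 3, against 15.3, 15.4 and 15.1 CPM in control libraries 1, 2 and 3. The groups did not overlap, but palbociclib library 1 stood near the controls. The log2 fold change of E2F5 was 0.33 ± 0.0989 (SE, edgeR adjusted p = 0.0274).

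That call was weak. It was lost without palbociclib library 2 (log2 fold change 0.25, edgeR adjusted p = 0.103), without palbociclib library 3 (0.32, edgeR adjusted p = 0.0639), and without control library 1, 2 or 3 (0.33, 0.34 and 0.32, edgeR adjusted p = 0.0767, 0.0618 and 0.0617). In the last 4 of these fits the log2 fold change was close to the 0.33 over all libraries. Library size alone gave 0.22 (edgeR adjusted p = 0.115), and over 15 alternatives the adjusted p of edgeR, DESeq2 or limma ran from 0.0112 to 0.212. E2F5 also shares 997 of its 5999 exon bases with RBIS on the opposite strand in the GENCODE 44 annotation. The E2F5 position in that annotation differs from the deposited one. RBIS, a ribosome biogenesis factor, was at 31.0, 31.6 and 26.1 CPM in palbociclib libraries 1, 2 and 3, against 20.4, 18.5 and 24.4 CPM in control libraries 1, 2 and 3 (log2 fold change 0.49 ± 0.116, SE, edgeR adjusted p = 0.00983). No source used here says whether counting used strand, so reads from the overlap may belong to either gene, and their part in the E2F5 value was not tested.

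Of the repressors that act without pocket proteins, E2F7 and E2F8 fell and E2F6 did not pass the test. E2F7 (ENSG00000165891, chromosome 12, 77021248 to 77065569, minus strand) was at 8.70, 8.89 and 9.54 CPM in palbociclib libraries 1, 2 and 3, against 24.2, 24.7 and 24.4 CPM in control libraries 1, 2 and 3. A wide gap separated tightly grouped libraries. Its log2 fold change was -1.43 ± 0.0819 (SE, edgeR adjusted p = 3.39e-06), and only 4.67% of the genes tested had a lower one. E2F8 (ENSG00000129173, chromosome 11, 19224063 to 19241620, minus strand), its partner and nearest relative, was at 7.37, 7.63 and 9.08 CPM in palbociclib libraries 1, 2 and 3, against 14.6, 14.98 and 14.6 CPM in control libraries 1, 2 and 3. Here too the groups lay far apart, with palbociclib library 3 the highest of its group. The E2F8 log2 fold change was -0.88 ± 0.111 (SE, edgeR adjusted p = 0.000309), with 10.7% of genes lower. The FPKM ratio of E2F7 to E2F8 was 0.772, 0.764 and 0.687 in palbociclib libraries 1, 2 and 3, against 1.09, 1.08 and 1.10 in control libraries 1, 2 and 3, so the balance within the pair shifted beyond the spread of the libraries.

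E2F6 (ENSG00000169016, chromosome 2, 11444375 to 11466177, minus strand), which represses through Polycomb proteins and lacks a pocket protein binding region, was at 13.0, 12.6 and 12.7 CPM in palbociclib libraries 1, 2 and 3, against 15.6, 14.5 and 14.2 CPM in control libraries 1, 2 and 3. The groups did not overlap, yet the difference did not pass (log2 fold change -0.21 ± 0.0871, SE, edgeR adjusted p = 0.089). It passed with library size alone (-0.32, adjusted p = 0.0172) and with limma on log2(FPKM + 1) (-0.24, adjusted p = 0.0113), over a range of 0.0102 to 0.252 among the alternatives. The processed pseudogene E2F6P1 had 81 to 105 counts with palbociclib and 69 to 115 counts in controls, and the division of reads between E2F6 and its copies is uncertain.

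In TMM-scaled CPM the DP partners differed by less than the spread between libraries. TFDP1 (ENSG00000198176, chromosome 13, 113584721 to 113641473, plus strand), the main partner, was at 56.9, 61.3 and 62.3 CPM in palbociclib libraries 1, 2 and 3, against 57.1, 60.7 and 57.9 CPM in control libraries 1, 2 and 3 (log2 fold change 0.04 ± 0.0511, SE, edgeR adjusted p = 0.600). TFDP2 (ENSG00000114126, chromosome 3, 141944428 to 142149544, minus strand) was at 78.3, 83.1 and 81.1 CPM in palbociclib libraries 1, 2 and 3, against 79.3, 79.9 and 82.0 CPM in control libraries 1, 2 and 3 (log2 fold change 0.01 ± 0.0416, SE, edgeR adjusted p = 0.917). In CPM the groups overlapped for both genes, and both log2 fold changes were below 0 with library size alone, at -0.07 and -0.10. In FPKM, without TMM scaling, the groups did not overlap for TFDP2, at 6.07 to 6.46 with palbociclib and 6.65 to 6.85 in controls. Per length, TFDP1 made up 69.8% to 70.95% of the summed FPKM of the pair with palbociclib and 69.2% to 70.7% in controls. The pseudogene TFDP1P2 had 139 to 173 counts with palbociclib and 104 to 167 counts in controls. TFDP3, the third DP gene, was not analysed here.

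**Figure D2:**
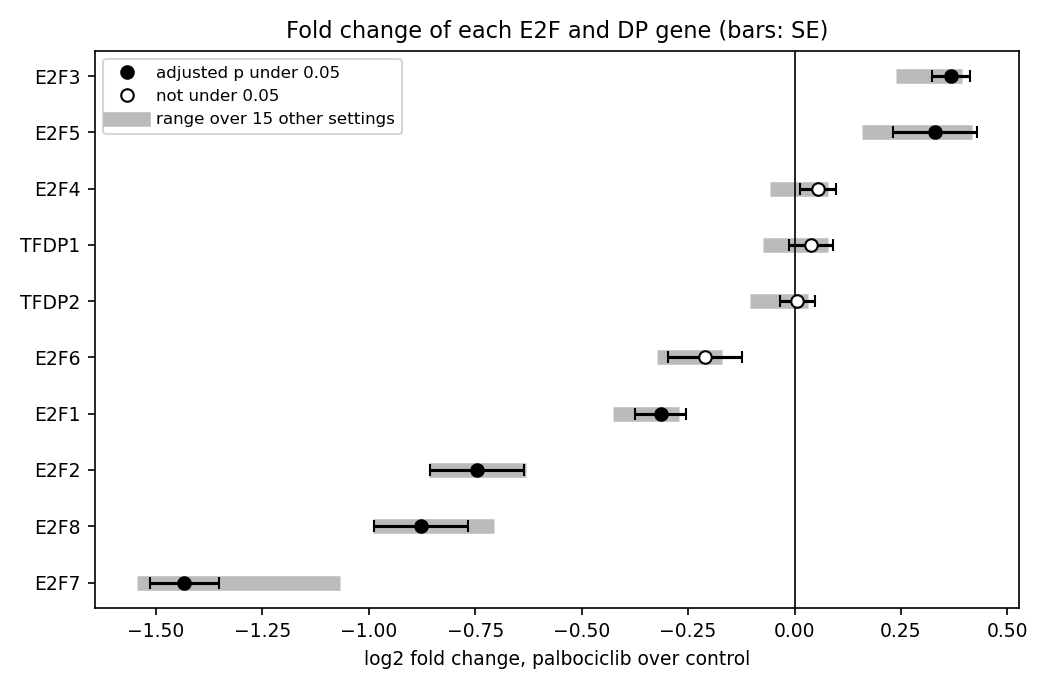
Log2 fold change of palbociclib over control for each E2F and DP gene (points, with SE bars), filled where the edgeR adjusted p was under 0.05, and the range over 15 other processing settings as a grey band. The bands of E2F1, E2F2, E2F7 and E2F8 lie below 0 and that of E2F3 above 0, whereas those of E2F4, TFDP1 and TFDP2 cross 0.

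The make-up of the E2F pool changed along with its size. The summed FPKM of E2F1 to E2F8 was 52.2, 52.8 and 52.8 in palbociclib libraries 1, 2 and 3, against 61.1, 63.7 and 60.3 in control libraries 1, 2 and 3. FPKM carry no TMM scaling, so this sum also moves with the scaling between groups. Shares within the pool do not depend on that scaling. E2F3 made up 21.99% to 22.8% of the pool with palbociclib and 15.2% to 16.9% in controls, and E2F4 33.8% to 34.9% and 29.97% to 30.5%. E2F7 made up 2.43% to 2.66% of summed FPKM with palbociclib and 6.19% to 6.38% in controls, and E2F8 3.15% to 3.86% and 5.71% to 5.82%. The share of E2F1 was 21.8% to 22.4% with palbociclib and 24.1% to 26.1% in controls. The FPKM of E2F1 was 3.96, 3.84 and 3.44 times that of E2F7 plus E2F8 in palbociclib libraries 1, 2 and 3, against 2.13, 2.20 and 1.97 times in control libraries 1, 2 and 3. That ratio of the activator to the pair that restrains it was higher in every palbociclib library, although E2F1 itself was lower. The activators E2F1 to E2F3 together stood at 1.22 to 1.23 times the FPKM of E2F4 plus E2F5 with palbociclib and at 1.37 to 1.41 times in controls.

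**Figure D3:**
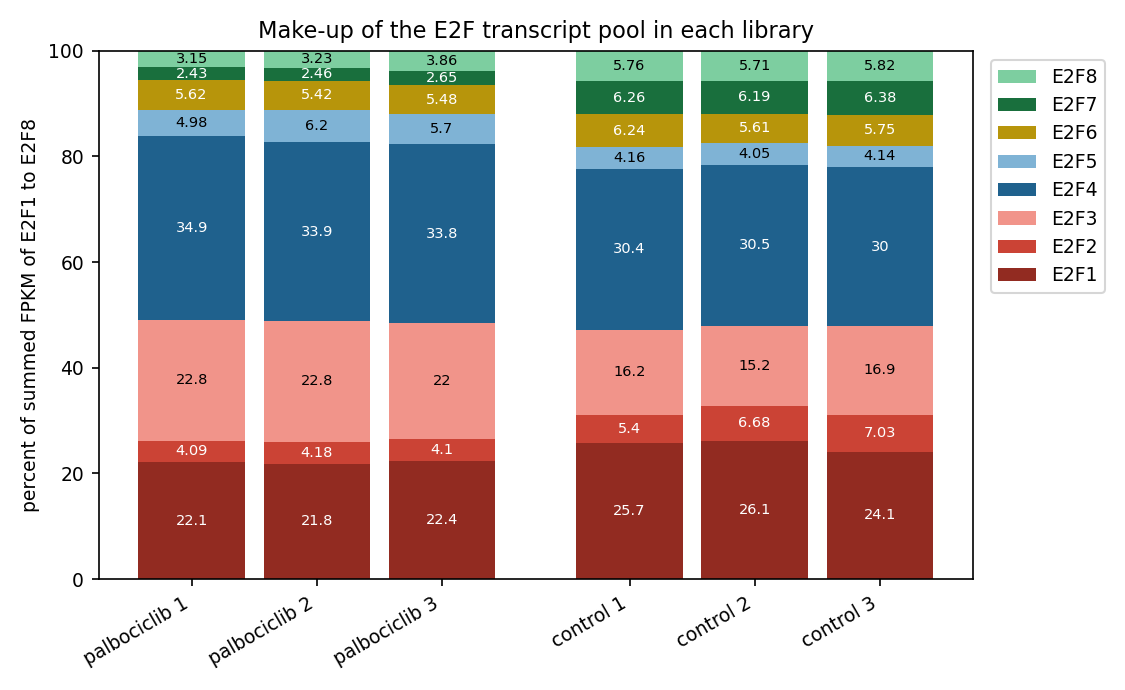
Share of each E2F gene in the summed FPKM of E2F1 to E2F8 (percent, vertical axis) in each library, palbociclib on the left and control on the right. E2F3 takes 21.99% to 22.8% with palbociclib and 15.2% to 16.9% in controls, and the E2F7 share is 2.43% to 2.66% with palbociclib and 6.19% to 6.38% in controls.

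Profiles of the called members were compared with those of 11711 other genes with a mean of at least 5 CPM by the Euclidean distance between log2 CPM values centred on their mean over the 6 libraries, as a description only. The nearest to E2F1 were NPRL3 (distance 0.0565) and TROAP (0.0571), and to E2F3 SARAF (0.0177) and MEX3A (0.0356). E2F7 was nearest to NBPF1 (0.0947) and RAPH1 (0.105). RFC4, a subunit of the clamp loader of DNA replication, was nearest to E2F8 (distance 0.110), ahead of SETBP1 (0.126). The log2 fold changes of RFC4 and SETBP1, -0.84 and -0.89, were near the -0.88 of E2F8. With 2 groups a small distance requires a similar fold change, so it does not show shared control. The nearest to E2F2 were the unnamed gene ENSG00000270977 (0.161) and ACOT2 (0.171), and to E2F5 GTF2B (0.114) and ZNF789 (0.120).

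Of the pocket proteins that bind E2Fs, RBL1, the p107 protein and a known E2F target, was at 17.5, 16.3 and 19.2 CPM in palbociclib libraries 1, 2 and 3, against 30.1, 29.9 and 30.2 CPM in control libraries 1, 2 and 3 (log2 fold change -0.77 ± 0.0774, SE, edgeR adjusted p = 8.42e-05). RB1 (0.01) and RBL2 (0.07) did not pass. Of 10 genes upstream of RB (cyclins, kinases and the phosphatase CDC25A), 4 rose and 2 fell, with a median of 0.07 beside -0.03 for all genes tested, of which 20.1% rose and 18.5% fell. The share that fell was thus near that of all genes. Cyclin E1 (CCNE1), an E2F target that acts on RB together with CDK2, rose to 20.4 ± 0.895 CPM with palbociclib, against 11.5 ± 1.69 CPM in controls (SD, n = 3 each, log2 fold change 0.83, edgeR adjusted p = 0.00061). CCND1 (0.43), CCND3 (0.33) and CDK4 (0.19) rose as well, and CDK6 fell (-0.89). Cyclin D2 (CCND2) fell too, at low counts that were high in control libraries 1 and 2 alone. It had 23, 12 and 12 counts in palbociclib libraries 1, 2 and 3, against 134, 136 and 21 counts in control libraries 1, 2 and 3. The number of lower genes in this list was 1 without palbociclib library 2 and 1 without control library 2. The number of higher genes in it was 3 with library size alone and 2 in the limma fits on FPKM. CDK4 shares 1369 of 3094 exon bases with TSPAN31 on the opposite strand.

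Of 7 CDK inhibitors, which keep RB in its E2F-binding form, 6 fell and CDKN1A, the p21 protein, rose (log2 fold change 0.47). Of all genes tested 18.5% fell and 20.1% rose. The median of the 7 inhibitors was -0.88. Falls were seen for CDKN1B, the p27 protein (74.9 ± 9.26 CPM with palbociclib and 141.2 ± 4.62 CPM in controls, SD, n = 3 each), CDKN2C (-1.15) and CDKN2A (2.17 ± 0.840 and 13.2 ± 1.44 CPM, -2.59), and for CDKN1C, CDKN2B and CDKN2D at lower levels. CDKN2A shares 593 of 3885 exon bases with CDKN2B-AS1. The count of 6 held in no fit that left out a library. It was 3 without palbociclib library 3, control library 2 or control library 3, and 4 without palbociclib library 1, palbociclib library 2 or control library 1, as it was with DESeq2, without a count filter and with a replicate block.

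The MuvB core joins E2F4 or E2F5 and a pocket protein to form the DREAM repressor, and later binds MYBL2 and FOXM1 to activate mitotic genes. Of 8 genes of the core and these partners 5 fell and none rose, beside 18.5% lower and 20.1% higher over all genes tested. Their median was -0.42. MYBL2, an E2F target that activates, was at 52.1, 51.9 and 51.0 CPM in palbociclib libraries 1, 2 and 3, against 105.0, 105.0 and 89.3 CPM in control libraries 1, 2 and 3 (log2 fold change -0.95, edgeR adjusted p = 9.62e-06). FOXM1 (-0.80), MYBL1 (-0.80), LIN9 (-0.46) and LIN54 (-0.38) fell, and LIN37 (-0.30), LIN52 (0.00) and RBBP4 (-0.02) did not pass. FOXM1 shares 782 of 4919 exon bases with ITFG2.

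E2F6 works within a Polycomb complex, PRC1.6. Of 14 genes of that complex and its enzymes, 5 rose and 2 fell, beside 20.1% and 18.5% of all genes tested, with a median log2 fold change of 0.07. The falls were PCGF6 (9.08 ± 0.602 CPM with palbociclib and 13.6 ± 1.14 CPM in controls, -0.58), the subunit that defines the complex, and the ubiquitin ligase RING1 (-0.61), while the deacetylase HDAC1 (0.29) and the chromatin reader CBX3 (0.36) rose. The number that rose was 2 with library size alone and 3 without palbociclib library 2, control library 1 or control library 2. Of 10 germline genes that E2F6 keeps silent in mouse cells, 7 had values and 5 passed the filter on low counts. SYCE2, a protein of meiotic chromosomes, was the single one called, and it was lower (2.17 ± 0.619 CPM with palbociclib and 4.25 ± 0.0801 CPM in controls, SD, n = 3 each, -0.97). It shares 352 of 1475 exon bases with GCDH. STAG3, a meiotic cohesin subunit, was at 0.02.

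Among 23 E2F cofactors and genes of E2F turnover 4 rose and 11 fell, beside 20.1% and 18.5% of all genes tested (median -0.08). The histone acetyltransferase genes CREBBP and KAT2A went opposite ways, while EP300 fell and KAT2B and KAT5 did not pass. CREBBP was at 78.3 ± 2.83 CPM with palbociclib and 127.5 ± 6.67 CPM in controls (-0.70), and KAT2A at 169.8 ± 3.42 and 122.1 ± 4.40 CPM (0.48, SD, n = 3 each). CDC20, an activator of the anaphase ubiquitin ligase, fell (-0.55).

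Of 56 known E2F targets of the G1/S transition 27 fell, 7 rose and 22 did not pass, beside 18.5% lower and 20.1% higher over all genes tested, with a median log2 fold change of -0.18, or -0.29 with library size alone. The falls with the lowest adjusted p were EZH2, the Polycomb methyltransferase (28.3 ± 1.86 CPM with palbociclib and 92.8 ± 0.950 CPM in controls, SD, n = 3 each, -1.71), the primase subunit PRIM1 (-1.23), the exonuclease EXO1 (-1.28) and the repair gene BRCA1 (-0.85). PRIM1 shares exon bases with NACA, HSD17B6 and an unnamed gene. The replicative helicase subunit MCM4 rose to 164.0 ± 3.37 CPM with palbociclib, against 128.7 ± 5.55 CPM in controls (0.35), along with CCNE1. The called targets thus went both ways. Of the 47 G1/S targets with a promoter window 27 held a match to the E2F letters, and 44.4% of these were lower with a median of -0.13, beside 55.0% and -0.20 among the 20 without.

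E2F1 is also known to switch on cell death genes. Of 14 such targets 2 rose and 4 fell, beside 20.1% and 18.5% of all genes tested (median 0.07, or -0.04 with library size alone). Among the BH3-only genes, HRK (0.408 ± 0.194 CPM with palbociclib and 4.76 ± 0.269 CPM in controls, -3.52) and PMAIP1 (10.5 ± 0.860 and 30.3 ± 2.27 CPM, -1.53) fell. BBC3 fell too (-1.14), while BCL2L11 (0.11) and BMF (-0.04) did not pass. The kinase MAP3K5 (33.8 ± 0.333 and 17.0 ± 1.44 CPM, 0.99, SD, n = 3 each) and the caspase CASP9 (0.65) rose. CDKN2A, counted above among the inhibitors, was also among those that fell. HRK had 17 to 46 counts in a palbociclib library and 283 to 365 in a control library.

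**Figure D4:**
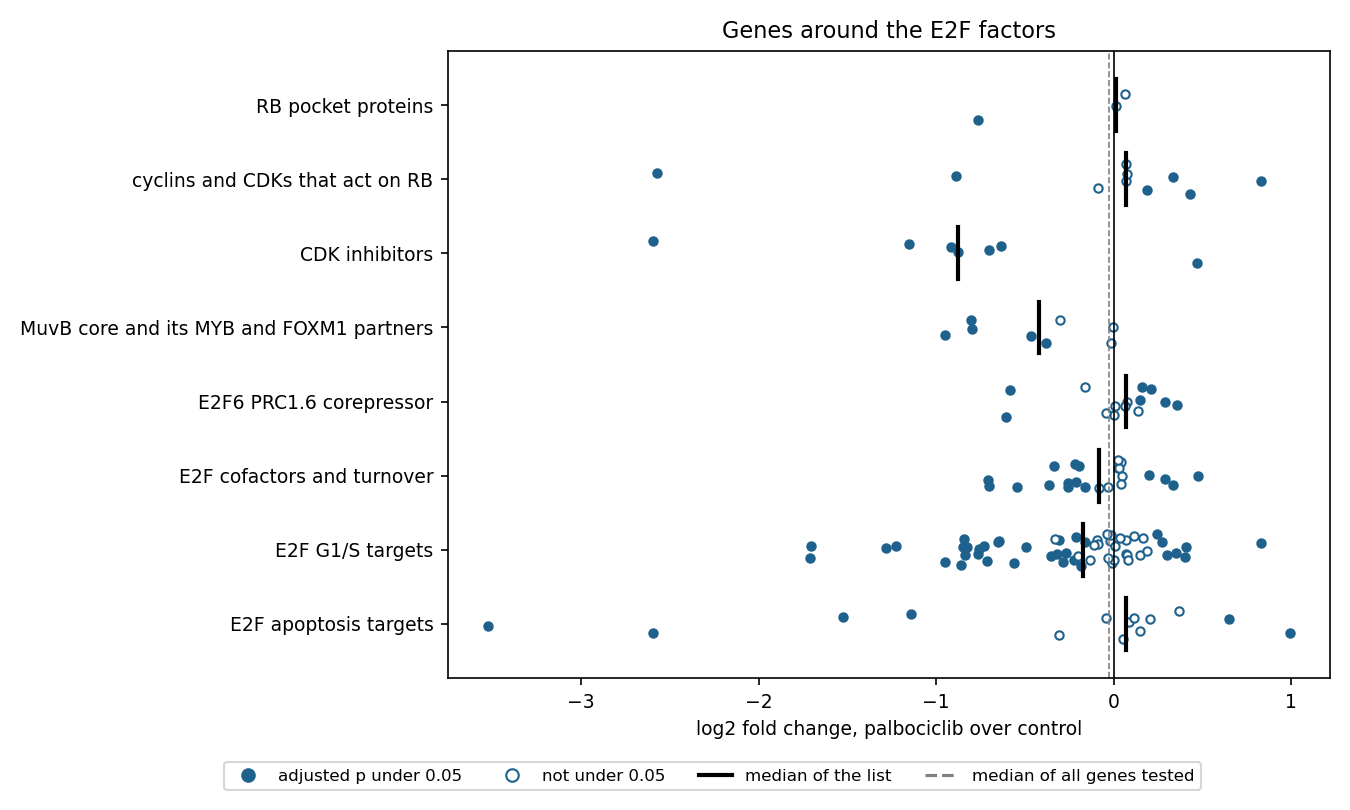
Log2 fold change of palbociclib over control (horizontal axis) for each tested gene of 8 lists around the E2F factors, filled where the edgeR adjusted p was under 0.05, with the list's median as a black bar and the median of all genes tested (-0.03) as a dashed line. CDK inhibitors have the lowest median of the 8 lists, -0.88, and G1/S targets spread from -1.71 to 0.83.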

How the data were processed

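The authors deposited estimated counts and FPKM per gene for the 6 libraries. Per the labels' protocols, libraries were made with oligo-dT beads. Per the submitters' processing notes, cutadapt 1.9, HISAT2 2.0.4 with hg38 and StringTie 1.3.4d were used. Per the series' design text, transcripts assembled from all libraries were merged before FPKM were computed. No source used here names an annotation release. All 10 members and the gene lists were chosen with earlier results of these data known. As deposited, the estimated counts were whole, so rounding changed nothing. Columns without a sample numbered 0, and rows without a gene name 0.

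Palbociclib was compared with control in R 4.3.3 with edgeR 4.0.16. Genes were kept with filterByExpr (minimum count 10, minimum total 15), which left 21218, and scaled by TMM. Fold changes came from the quasi-likelihood F-test, fitted without a replicate block, and p-values were adjusted by Benjamini-Hochberg over those 21218 genes (threshold 0.05). The script was tested on simulated data. SE is the absolute log2 fold change over the square root of F. DESeq2 1.42.0, limma 3.58.1 on log2(FPKM + 1) and log2(FPKM + 0.1), other filters and left-out libraries were the alternatives. Lists are described by counts and medians only.

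The text names the members whatever their result, any gene of lists of up to 10 genes, of longer lists up to 4 called genes by lowest adjusted p and up to 2 of the opposite direction, and the 2 nearest profiles of each called member. RBIS, the pseudogenes, overlapping genes, EP300, KAT2B, KAT5, BBC3, BCL2L11 and BMF were added after their values were seen. Positions are those of the deposited table on hg38, and exon overlaps were taken from GENCODE 44 for genes with at least 60 counts. Within each group, libraries varied beyond counting noise (chi-square per degree of freedom 3.22 to 5.74 on counts divided by 4).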

Additional observations from a re-analysis of the deposited data

How the results depend on the processing

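Calls of E2F1, E2F2, E2F3, E2F7 and E2F8 kept their direction and stayed under 0.05 in all 15 alternatives. The number of members called lower was 4 in each left-out library fit and 5 where E2F6 joined them, which was with library size alone and in the limma fits. Members called higher numbered 1 with library size alone, with limma on log2(FPKM + 1), with and without its filter, and with limma on log2(FPKM + 0.1), and 1 to 2 over the fits that left out a library, since E2F5 was lost. The whole-table count of higher genes was 2687 with limma on log2(FPKM + 1) without a filter, and 4270 in the fit reported. Without TMM the median over all genes tested was -0.14, against -0.03 with it, and higher genes were 36.1% of calls, against 52.1%, and limma gave 37.7% to 38.8%. List medians below 0 without TMM and above 0 with it were those of pocket proteins (-0.10), cyclins and kinases (-0.04), PRC1.6 (-0.04) and cell death targets (-0.04). Signs near 0 turned for members that were not called. E2F4 was at -0.0573 with library size alone, -0.0516 with limma on log2(FPKM + 1), with and without its filter, and -0.0541 with log2(FPKM + 0.1). TFDP1 was at -0.0734, -0.0667 and -0.0707 under the same settings. TFDP2 was at -0.1048, -0.0886 and -0.1007 there, -0.0035 without a count filter, -0.0068 at a mean of at least 1 CPM, -0.0082 with counts divided by 4, and between -0.0122 and 0.0317 among left-out libraries, with -0.0026 without control library 1. Of the lists, higher G1/S targets numbered 4 with limma on log2(FPKM + 1) without a filter, higher cyclins and kinases 2 in the limma fits, and lower ones 1 at a mean of at least 1 CPM and with counts divided by 4. Higher PRC1.6 genes numbered 2 in the limma fits too, and lower germline genes 2 there and with library size alone. The median of the germline list was -0.68 without palbociclib library 3. The cause of these shifts was not tested. Libraries of equal replicate number showed no strong shared deviation from their group means, with correlations of -0.032, -0.067 and -0.025. With 3 libraries in a group, these values cannot exclude a pairing. A replicate block gave 3855 higher and 3438 lower genes, with 2 and 4 members, and changed no member's call. Depth limits E2F8 most among the members, at 494 counts in its lowest library, with an inferred 4 or so to a fragment.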
